A study of Mus musculus with 5 samples.

Results

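The proteasome subunit genes are the 49 protein-coding mouse genes, of 21887 on chromosomes 1 to 19, X and Y, whose symbols run from the Psma to the Psmg families. BRG1 peaks at these genes were taken from chromatin immunoprecipitation and sequencing (ChIP-seq) of bone marrow-derived macrophages, which are cultured from bone marrow and belong to the myeloid lineage. There was 1 library each for Baf60a KO cells with oxidised low-density lipoprotein (oxLDL), WT cells with oxLDL, KO cells without it and WT cells without it, and a BRG1 antibody was used for all 4. The allele and any Cre driver behind the KO, the age, sex and number of the mice, whether mice were pooled, and the dose and time of oxLDL are not stated in the labels. A peak counted for a gene when its summit lay in the gene body or within 1 kb of it. With 1 library per group there are no replicates, no difference can be set against a spread between samples, and no p-value is given.

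The proteasome degrades proteins that carry ubiquitin chains. Its barrel-shaped core has outer rings of alpha subunits, which gate entry, and inner rings of beta subunits, which hold the proteolytic sites. A regulatory particle made of a base, with a ring of ATPases, and a lid, which removes ubiquitin, feeds substrates into the core. In immune cells, inducible beta subunits replace the constitutive catalytic ones and form the immunoproteasome, which shapes peptides for display on MHC class I molecules. BRG1 is the motor subunit of SWI/SNF complexes, which move nucleosomes using ATP, and BAF60a is an accessory subunit of the same complexes. A BRG1 peak near a gene does not measure its expression.

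The lists held 4668 peaks in oxLDL KO, 9907 in oxLDL WT, 139 in KO and 237 in WT. The lowest fragment background that could be recovered was 3.42 fragments in oxLDL KO, 3.76 in oxLDL WT, 3.84 in KO and 2.70 in WT. It also depends on the settings of the peak caller, which are not stated, so it does not give the relative depth of the libraries. Of 10 macrophage marker genes, 7 had a peak in oxLDL KO, 9 in oxLDL WT, 1 in KO and 0 in WT. Of 8 marker genes of other cell types, 0 had a peak in oxLDL KO, 1 (Pecam1) in oxLDL WT and 0 in KO and WT. Among these, Gata1 is on the X chromosome, where no list held any peak, so it could not have been counted. Smarcd1, which encodes BAF60a, had no peak in any list, so the lists do not show whether it was deleted.

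BRG1 peaks were found at 17 of the 49 proteasome genes, and the oxLDL lists held all of them. Peaks were present at 5 genes in oxLDL KO (10.2%, Wilson 95% interval 4.44 to 21.8), where 13.1% of all protein-coding genes had one. In oxLDL WT they were present at 16 genes (32.7%, interval 21.2 to 46.6), where 21.6% of all protein-coding genes had one. These intervals cover counting error only. Both the proteasome genes and all protein-coding genes include genes on the X chromosome, where no list held any peak. In oxLDL KO the share lay close to that of all genes. In oxLDL WT the interval began just under the value for all genes, 21.6%.

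Among the 17 genes, Psma4, Psmb9, Psmd1 and Psme4 had a peak in both oxLDL lists (4 genes, 8.16%, against 10.3% of all protein-coding genes). Psmc2 alone had one in oxLDL KO and not in oxLDL WT (1 gene, 2.04%, against 2.85% of all genes). Another 12 genes had one in oxLDL WT and not in oxLDL KO (24.5%, interval 14.6 to 38.1, against 11.3% of all genes). This interval lay above the value for all genes, but genes of 1 library are not replicates and the difference was not tested. Of the 16 proteasome genes with an oxLDL WT peak, 4 also had an oxLDL KO peak (25%, interval 10.2 to 49.5), and among all protein-coding genes 47.6% did. Of the 5 with an oxLDL KO peak, 4 also had an oxLDL WT peak (80%, interval 37.6 to 96.4, against 78.3% of all genes). The intervals of these last 2 shares, 25% and 80%, include the values for all genes.

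No proteasome gene had a peak in the lists without oxLDL. In KO the count was 0 of 49, against 0.315% of all protein-coding genes, and in WT it was 0 of 49, against 0.621%. A count of 0 of 49 allows a share of up to 6.12%, so these counts lie near the shares of all genes and show nothing particular to the proteasome genes. The nearest summit to any proteasome gene lay 37.6 kb away in KO and 39.1 kb away in WT. All 5 oxLDL KO peaks at proteasome genes had a −log10 p at or above the lowest value of the KO list (5.33) and of the WT list (5.13). Of the 19 oxLDL WT peaks, 15 were at or above each of these values.

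**Figure D1:**
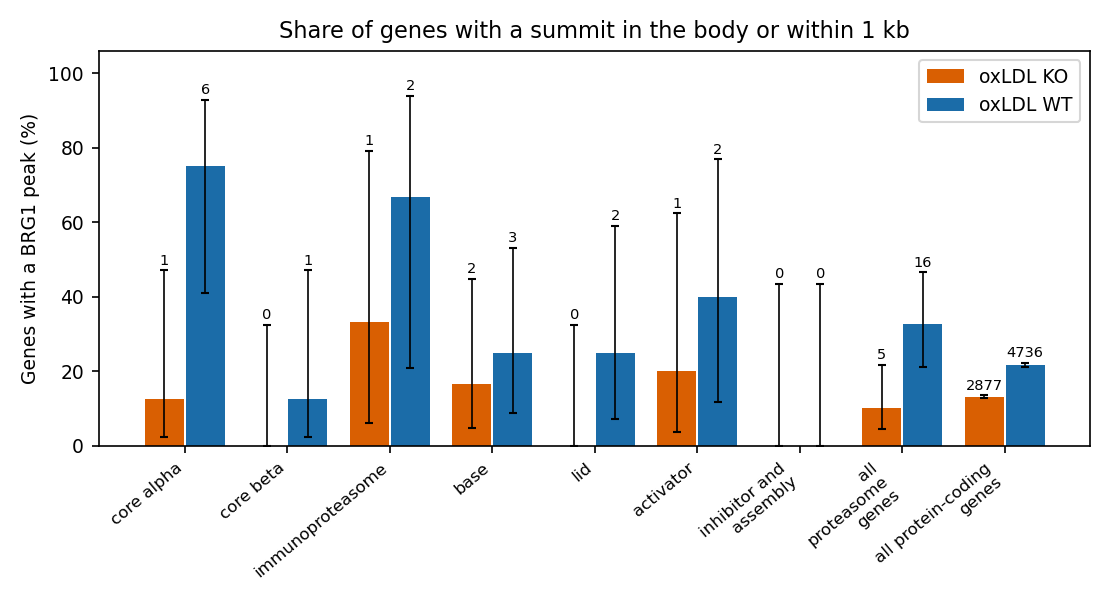
Share of genes (%) with a BRG1 summit in the gene body or within 1 kb, by subunit group, in oxLDL KO (orange) and oxLDL WT (blue). Bars are shares in 1 library each, whiskers are Wilson 95% intervals for counting error, and the number over each whisker is the count of genes. Of the core alpha genes, 1 of 8 had a peak in oxLDL KO and 6 of 8 in oxLDL WT, and the inhibitor and assembly genes had 0 of 5 in both.

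The start of a gene and its strand were known for 41 of the 49 members from RefSeq promoter windows on GRCm38.p6, the assembly of mm10, which run from 250 bases before a start to 50 after it. The peaks lay next to these windows rather than in them. No summit fell inside any of the 44 windows of the members, and peaks reached into 5 of them. The bases before the start are shown for 5 members. Psmb9, Psmd1 and Psme4 had peaks at the start in both oxLDL lists. Psmd4 had the only summit on the upstream side within 1 kb of a start known from these windows. A Psma3 summit in oxLDL WT lay 690 bp before the annotated span of that gene, but its window start lies inside the span. Psmd14 had the start-proximal oxLDL WT peak with the highest fold enrichment. Bases that RefSeq assigns to any gene were left out, and Psma4, also with peaks in both lists, is not shown because its window lies within the neighbouring gene AY074887. Capitals mark the CCAAT box (CCAAT or ATTGG, the NF-Y motif), the ETS core (CGGAAG or CTTCCG) and the interferon-stimulated response element, found on either strand.
Psmb9, chr17:34187331-34187555, minus strand: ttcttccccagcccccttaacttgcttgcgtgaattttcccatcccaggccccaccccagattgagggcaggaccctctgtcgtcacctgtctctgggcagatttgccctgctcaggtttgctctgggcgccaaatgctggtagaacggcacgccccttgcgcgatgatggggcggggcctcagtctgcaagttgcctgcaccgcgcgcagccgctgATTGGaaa
Psmd1, chr1:86064369-86064618, plus strand: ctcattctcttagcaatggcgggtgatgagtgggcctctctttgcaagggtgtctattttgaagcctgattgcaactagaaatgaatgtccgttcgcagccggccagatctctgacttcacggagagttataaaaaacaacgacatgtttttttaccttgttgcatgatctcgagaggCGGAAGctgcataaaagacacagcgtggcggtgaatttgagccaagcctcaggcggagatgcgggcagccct
Psme4, chr11:30771525-30771774, plus strand: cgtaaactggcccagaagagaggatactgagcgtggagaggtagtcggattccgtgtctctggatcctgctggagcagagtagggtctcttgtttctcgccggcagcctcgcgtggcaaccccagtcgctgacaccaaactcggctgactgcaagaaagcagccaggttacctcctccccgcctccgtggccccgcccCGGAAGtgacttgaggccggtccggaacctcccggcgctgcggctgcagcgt
Psmd4, chr3:95042615-95042864, minus strand: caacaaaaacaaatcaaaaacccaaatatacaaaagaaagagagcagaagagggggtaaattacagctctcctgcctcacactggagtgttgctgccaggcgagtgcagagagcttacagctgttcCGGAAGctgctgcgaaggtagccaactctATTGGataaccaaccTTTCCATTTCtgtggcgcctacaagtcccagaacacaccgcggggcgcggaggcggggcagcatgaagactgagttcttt
Psmd14, chr2:61711444-61711693, plus strand: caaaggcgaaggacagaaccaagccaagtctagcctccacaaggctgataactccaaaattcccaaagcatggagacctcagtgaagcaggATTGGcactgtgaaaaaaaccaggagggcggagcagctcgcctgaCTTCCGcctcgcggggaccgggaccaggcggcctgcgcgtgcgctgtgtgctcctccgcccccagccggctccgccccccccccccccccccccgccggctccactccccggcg
In Psmd4 the first 110 of these bases lie in the oxLDL WT peak, and in the other 4 members the peaks begin after the last base shown.

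Among the genes of the alpha ring, 1 of 8 had an oxLDL KO peak (12.5%, interval 2.24 to 47.1) and 6 of 8 an oxLDL WT peak (75%, interval 40.9 to 92.9). Among all protein-coding genes 13.1% had an oxLDL KO peak and 21.6% an oxLDL WT peak. The oxLDL KO share of the alpha genes was near that of all genes, and their oxLDL WT interval lay above 21.6%. Among genes with promoter CpG ratios like those of the members, described below, 29.8% had an oxLDL WT peak. The alpha genes were 1 of 7 subunit groups, genes of 1 library are not replicates, and the difference was not tested. Psma4 (chromosome 9, 54950781 to 54958034) was the alpha gene with peaks in both. Its oxLDL KO peak, 54950894 to 54951169, had a fold enrichment over local background of 4.07 and rested on a pileup of 17 fragments (95% Poisson interval 9.9 to 27.2). Its oxLDL WT peak, 54950970 to 54951234, had a fold enrichment of 3.36 and a pileup of 15 fragments (8.4 to 24.7). The intervals of the pileups overlapped, the peaks shared 200 bp, and the summits lay 129 bp apart. Fold enrichment was calculated by the authors and ranks peaks only within its list. In oxLDL KO 58.4% of the list had a lower value than the Psma4 peak, and in oxLDL WT 26.2% did. Both Psma4 summits also lay within 1 kb of AY074887.

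The other alpha genes with peaks had them in oxLDL WT alone, with fold enrichments from 3.15 to 3.99, where the median of the list was 3.75. Psma2 (chromosome 13, 14613242 to 14625673) had 3.78 with a summit 288 bp into the gene, and the summit lay 493 bp from Mrpl32, a mitochondrial ribosomal protein gene that starts on the opposite strand 205 bp from Psma2. Psma1 (chromosome 7, 114264550 to 114276116) had 3.19, and Psma5 (chromosome 3, 108256926 to 108279952) had 3.15, with 14 fragments (7.7 to 23.5). Psma3 (chromosome 12, 70969283 to 70995877) had a pair of peaks. The Psma3 peak with a fold enrichment of 3.99 had its summit 690 bp outside the gene, and the one with 3.24 had it 508 bp beyond the start in the promoter table, which lies inside the annotated span. Psma6 (chromosome 12, 55384222 to 55418459) had a peak of 970 bp with a fold enrichment of 3.36 whose summit was 5337 bp inside the gene, away from both of its annotated starts. Psma7 and Psma8, of which Psma8 is the testis form of an alpha subunit, had no peak.

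Of the 8 constitutive and thymic beta genes, 0 of 8 had a peak in oxLDL KO and Psmb1 alone had one in oxLDL WT (12.5%, interval 2.24 to 47.1), against 13.1% of all genes in oxLDL KO and 21.6% in oxLDL WT. The Psmb1 peak (gene on chromosome 17, 15475721 to 15498276) was close to the limit of the list, with a fold enrichment of 2.73, a −log10 q of 1.03 and 12 fragments (6.2 to 21.0). Psmb5, Psmb6 and Psmb7, which encode the constitutive catalytic subunits, had no peak, nor had Psmb2, Psmb3, Psmb4 or Psmb11, the thymus form. The difference between 6 of 8 alpha genes and 1 of 8 beta genes in oxLDL WT is a description of 1 library, and the Wilson intervals of the shares overlap.

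Of the 3 immunoproteasome genes, Psmb9 had a peak in both oxLDL lists and Psmb8 in oxLDL WT, which makes 1 of 3 in oxLDL KO (against 13.1% of all genes) and 2 of 3 in oxLDL WT (against 21.6%). Psmb8 and Psmb9 sit beside Tap1 and Tap2, the peptide transporter genes, in the MHC region of chromosome 17. Psmb9 (34182030 to 34187330, minus strand) had an oxLDL KO peak at 34187060 to 34187308 with a fold enrichment of 3.85 and 16 fragments (9.1 to 26.0). Its oxLDL WT peak at 34187086 to 34187323 had 4.20 and 19 fragments (11.4 to 29.7). The peaks shared 223 bp with summits 142 bp apart, and both ended short of the Psmb9 start. The start of Tap1 lies 226 bp from that of Psmb9 on the opposite strand, across the Psmb9 sequence shown above, so the same peaks counted for both genes. Psmb8 (34198195 to 34201454) had an oxLDL WT peak with a fold enrichment of 3.15 and 14 fragments. Its nearest oxLDL KO summit was that of the Psmb9 peak, 11.1 kb before the Psmb8 start. Psmb10, which encodes the remaining inducible catalytic subunit, had no peak, and its nearest summit was 79.4 kb away in oxLDL KO and 27.6 kb in oxLDL WT.

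The genes grouped here as the base include those of its assembly chaperones, Psmd5, Psmd9 and Psmd10. This group had peaks at 2 of 12 in oxLDL KO (16.7%, interval 4.7 to 44.8) and 3 of 12 in oxLDL WT (25%, interval 8.89 to 53.2), the latter counting Psmd5. The values of all genes, 13.1% in oxLDL KO and 21.6% in oxLDL WT, lay within the intervals. Psmd1, which encodes the largest scaffold subunit of the base, held the highest peaks of all proteasome genes in both lists, at different places. At its start (gene on chromosome 1, 86064619 to 86139295), the oxLDL KO peak had a fold enrichment of 4.98 with 21 fragments (13.0 to 32.1), above 89% of that list. The oxLDL WT peak at the start had 4.20 with 19 fragments (11.4 to 29.7), above 70.4% of its list. The summits were 12 bp apart and the peaks shared 235 bp, the closest match between the lists at any proteasome gene. The highest oxLDL WT peak lay far inside Psmd1, with its summit at 86125921, 61302 bp from the start. It had a fold enrichment of 5.67, a −log10 q of 9.46 and 26 fragments (17.0 to 38.1), above 95.8% of the list. A second inner peak, at 86124718, had 2.62 and stood near the bottom of the list. No oxLDL KO peak overlapped either inner peak. Htr2b is a serotonin receptor gene contained within the span of Psmd1, and its nearer edge lay 9690 bp from the higher inner summit.

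Psmc2, which encodes an ATPase of the base, was the only member with a peak in oxLDL KO and not in oxLDL WT. The peak (chromosome 5, 21786829 to 21787120) had a fold enrichment of 4.30 with 18 fragments (10.7 to 28.4), above 69.7% of the list. Its summit lay 231 bp beyond the second annotated start of Psmc2, and the nearest oxLDL WT summit was 139 kb from the gene. Psmd4, which encodes a ubiquitin receptor (chromosome 3, 95032688 to 95042614), had an oxLDL WT peak of 865 bp. Its fold enrichment was 3.99 with 18 fragments, and its summit lay upstream, 281 bp before the start. Psmd5, an assembly chaperone of the base (chromosome 2, 34852087 to 34870965), had an oxLDL WT peak with 3.57 and 16 fragments. The other ATPase genes Psmc1, Psmc3, Psmc4, Psmc5 and Psmc6 had no peak, nor had the scaffold gene Psmd2 or the chaperone genes Psmd9 and Psmd10. Psmd10 is on the X chromosome, where no list held any peak.

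The lid genes had peaks at 0 of 8 in oxLDL KO (against 13.1% of all genes) and at 2 of 8 in oxLDL WT (25%, interval 7.15 to 59.1, against 21.6%). Psmd14, the deubiquitinating enzyme of the lid (chromosome 2, 61711694 to 61800376), had a fold enrichment of 5.04, a −log10 q of 7.21 and 23 fragments (14.6 to 34.5), above 90.6% of the list, with its summit 259 bp into the gene. The nearest oxLDL KO summit to Psmd14 was 572 kb away. Psmd11, a scaffold subunit of the lid (chromosome 11, 80428615 to 80473248), had 3.47 with 20 fragments (12.2 to 30.9). Psmd3, Psmd6, Psmd7, Psmd8, Psmd12 and Psmd13 had no peak.

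Of 5 activator genes, 1 had a peak in oxLDL KO (20%, interval 3.62 to 62.4, against 13.1% of all genes) and 2 in oxLDL WT (40%, interval 11.8 to 76.9, against 21.6%). Psme4 encodes the large activator PA200 (chromosome 11, 30771775 to 30881150). Its oxLDL KO peak of 412 bp had a fold enrichment of 3.82 with 17 fragments (9.9 to 27.2), and its oxLDL WT peak of 1005 bp, the widest at any proteasome gene, had 4.17 with 19 fragments (11.4 to 29.7). The oxLDL KO peak lay wholly inside the oxLDL WT one, with summits 338 bp apart. Psme1, a subunit of the interferon-inducible activator PA28 (chromosome 14, 55578494 to 55581527), had an oxLDL WT peak with 3.57 and 16 fragments. Psme2, its partner subunit, had none, and its nearest oxLDL WT summit was that of the Psme1 peak, 8.86 kb away. Psme2b and Psme3 had none. The inhibitor gene Psmf1 and the assembly chaperone genes Psmg1, Psmg2, Psmg3 and Psmg4 had no peak in any list.

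**Figure D2:**
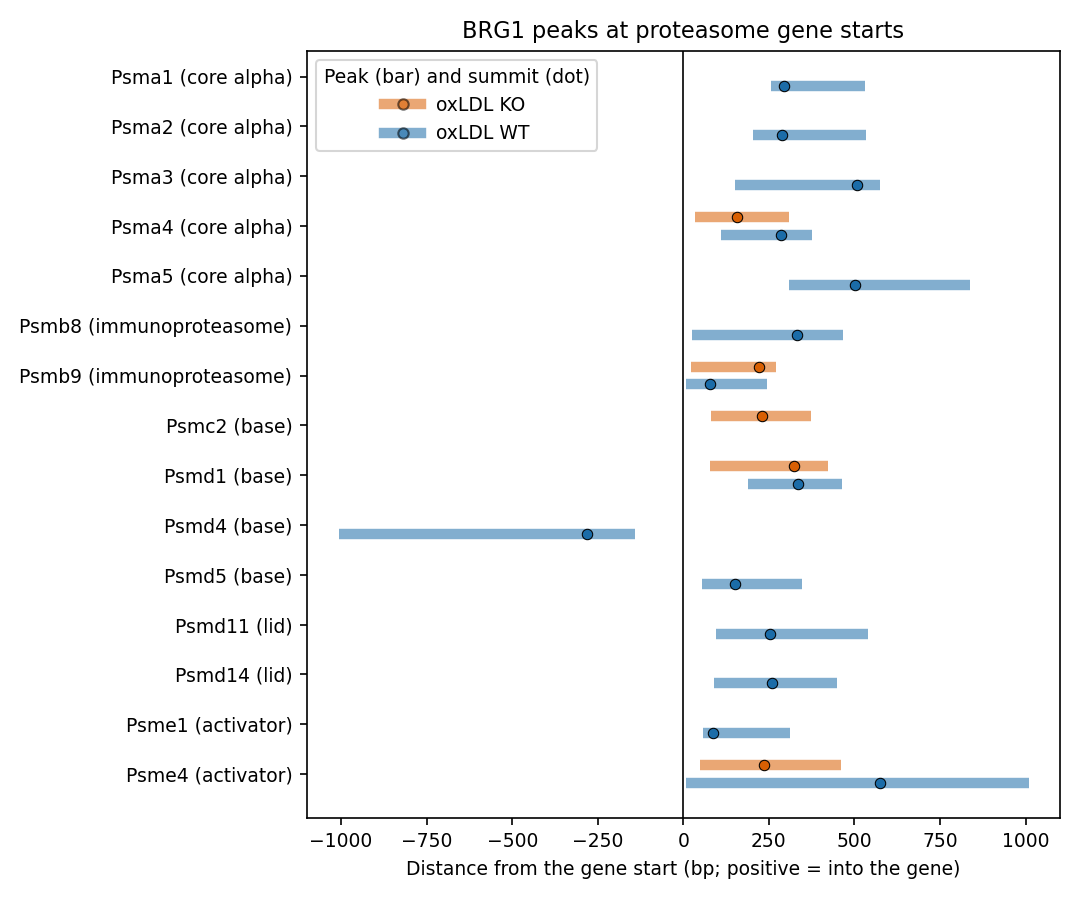
BRG1 peaks within 1 kb of a gene start at 15 proteasome genes, with the distance from the start in bp on the horizontal axis and positive values running into the gene. Bars are peaks and dots are summits, in oxLDL KO (orange) and oxLDL WT (blue), from 1 library each. All bars but that of Psmd4 lie wholly downstream of the start. The peak of Psma6, the inner Psmd1 peaks and the upstream Psma3 peak are not drawn because they lie farther from the promoter-window starts. That of Psmb1 is not drawn because no start was available.

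Measured from the starts of the promoter windows, the summits at proteasome gene starts lay mainly on the downstream side. The window start of Psma3 lies inside its annotated span. Its oxLDL WT summit 690 bp before that span was therefore not counted, and its other summit was. Within 1 kb of a start there were summits at 5 of the 41 members in oxLDL KO, against 9.84% of all genes with a window, and at 14 of 41 in oxLDL WT, against 16.3% of all genes. All 5 oxLDL KO summits were downstream, 157 to 324 bp from the start with a median of 231 bp. In oxLDL WT, 13 of 14 were downstream (92.9%), and over all 14 the median was 287 bp downstream and the farthest 574 bp. The same side was usual for all protein-coding genes, with 79.6% downstream and a median of 256.5 bp in oxLDL KO, and 74.6% and 213 bp in oxLDL WT. The start base itself was covered at 0 of 5 members in oxLDL KO and 0 of 14 in oxLDL WT, while peaks did so at 13.2% of all such genes in oxLDL KO and 21.5% in oxLDL WT. With so few members a count of 0 allows a wide range of shares, and the difference from all genes was not tested.

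**Figure D3:**
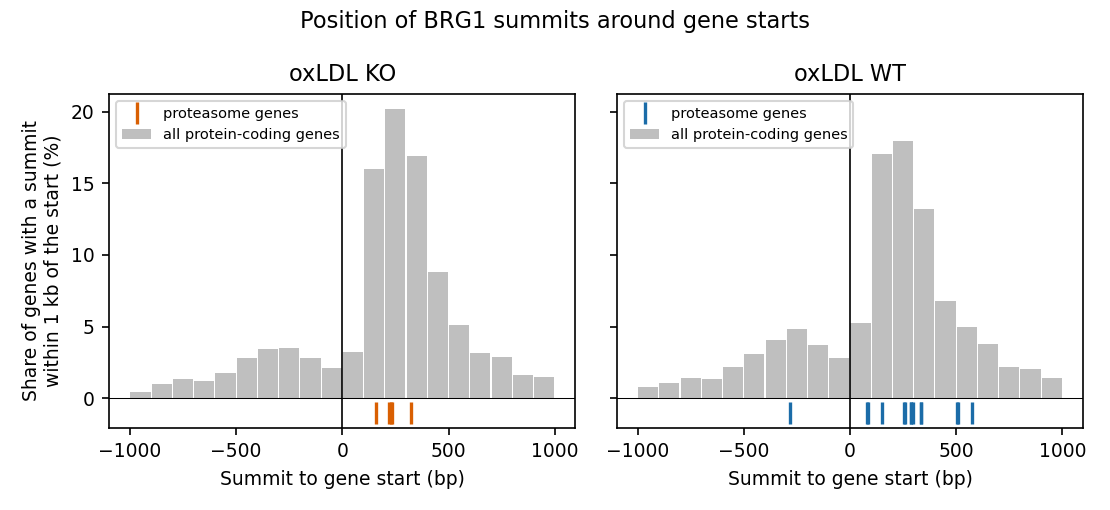
Distance of the nearest summit from the gene start in bp, in oxLDL KO (left) and oxLDL WT (right). Grey bars give the share (%) of all protein-coding genes with a summit within 1 kb in each 100 bp bin, and coloured ticks below the axis are the proteasome genes, 5 in oxLDL KO and 14 in oxLDL WT. The ticks fall mainly under the tallest grey bars, downstream of the start.

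Peaks at proteasome genes were of ordinary height. In oxLDL KO the 5 fold enrichments ran from 3.82 to 4.98 with a median of 4.07, and the whole list had a median of 3.85. In oxLDL WT the 19 ran from 2.62 to 5.67 with a median of 3.57, against 3.75 for the whole list, and 8 of the 19 were above that median. The pileups were 16 to 21 fragments with a median of 17 in oxLDL KO, and 12 to 26 with a median of 17 in oxLDL WT, where the median of each whole list was also 17. None of these peaks lay in a region of high local background.

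**Figure D4:**
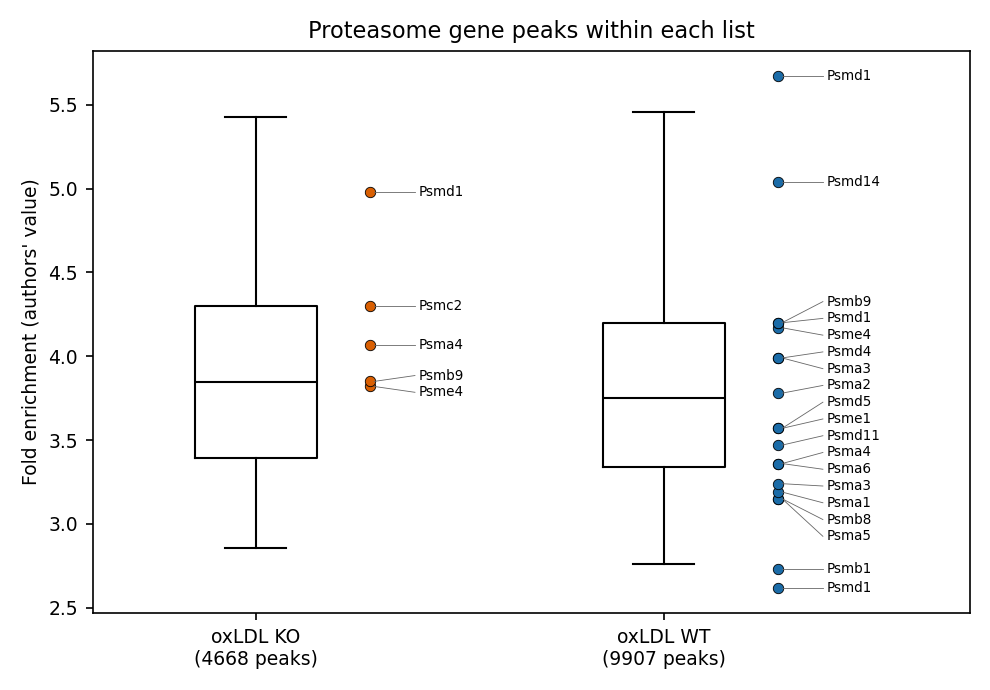
Fold enrichment over local background (the authors' value) of the peaks at proteasome genes, as labelled dots, beside all peaks of the same list. Boxes are quartiles with the median, and whiskers run from the 5th to the 95th percentile. Above the boxes stand Psmd1 (4.98) in oxLDL KO, and the inner Psmd1 peak (5.67) and Psmd14 (5.04) in oxLDL WT.

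The share of proteasome genes with an oxLDL WT peak was above that of all genes at −log10 q limits of 1 to 3, below it at 4 to 6, and slightly above it at 7 and 8, where 2 genes and 1 gene were left. In oxLDL KO the share was 10.2% at a −log10 q of at least 3, against 8.72% of all genes. At a limit of 5 it was Psmd1 alone (2.04%), against 3.02% of all genes. In oxLDL WT 8 of 49 had a peak at a limit of 3 (16.3%), against 13.9% of all protein-coding genes. At a limit of 4 it was 4 genes (8.16%), against 9.1% of all genes. At a limit of 5 it was Psmd1 and Psmd14, 2 genes (4.08%), against 7.09% of all genes, so the share was then below that of the genome. Of the 19 oxLDL WT peaks at proteasome genes, 2 passed this limit, while 25.4% of the whole list did. The Psmd1 peaks that passed in the libraries were at different sites, the start in oxLDL KO and the inner site in oxLDL WT.

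**Figure D5:**
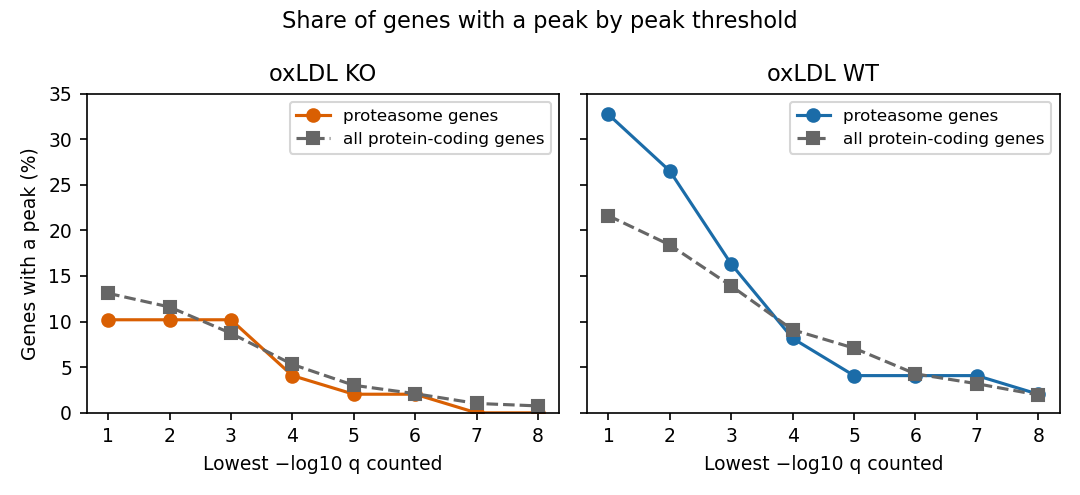
Share (%) of proteasome genes (coloured circles) and of all protein-coding genes (grey squares) with a peak as the lowest −log10 q counted is raised from 1 to 8, in oxLDL KO (left) and oxLDL WT (right). In oxLDL KO the lines stay close to each other, and in oxLDL WT the proteasome genes begin at 32.7% against 21.6% and lie below all genes at limits of 4, 5 and 6.

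The shares of proteasome peaks found in both oxLDL lists had intervals that included the values of the whole lists. With 5 and 19 peaks from 1 library each these intervals were wide, so they cannot show whether the shares differ. Of the 5 peaks at proteasome genes in oxLDL KO, 4 had at least 1 bp in common with a peak of the oxLDL WT list (80%, interval 37.6 to 96.4), against 59.6% of all oxLDL KO peaks. Of the 19 in oxLDL WT, 4 had bases in common with a peak of the oxLDL KO list (21.1%, interval 8.51 to 43.3), against 27.3% of all oxLDL WT peaks. The 4 matched oxLDL WT peaks had fold enrichments from 3.36 to 4.20, and the 15 unmatched ones from 2.62 to 5.67. Of these 15, 14 had a −log10 p above the lowest of the oxLDL KO list (3.96). The part of library depth and of the number of peaks called in this difference was not tested.

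Gene length and promoter composition moved with these counts. The members had a median length of 11567 bp, against 17169 bp for all protein-coding genes. Members with an oxLDL WT peak had a median of 20717.5 bp, and those without 8761 bp. Among all genes of 3210 to 46900 bp, the span from the 10th to the 90th percentile of the members, 11.3% had an oxLDL KO peak, 20.2% an oxLDL WT peak, 0.229% a KO peak and 0.466% a WT peak. The promoter windows of the members were CpG-rich, with a median ratio of observed to expected CpG of 0.731, against 0.567 for all protein-coding genes. Among genes with a ratio of 0.523 to 0.969, the same percentiles of the members, 18.6% had an oxLDL KO peak, 29.8% an oxLDL WT peak, 0.362% a KO peak and 0.776% a WT peak. Over all 49 proteasome genes, including those outside this range or without a window, the shares were 10.2% in oxLDL KO and 32.7% in oxLDL WT. Of the 27 members within both limits, 2 had an oxLDL KO peak and 9 an oxLDL WT peak, while among all genes within them 15.5% had an oxLDL KO peak, 26% an oxLDL WT peak, 0.205% a KO peak and 0.553% a WT peak. Cytosolic ribosomal protein genes, another housekeeping set, had a peak at 8 of 77 in oxLDL KO (10.4%) and 12 of 77 in oxLDL WT (15.6%), and the difference from the proteasome genes was not tested.

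The promoter windows of the members held the ETS core CGGAAG in 23 of 44 (52.3%), against 21.1% of all protein-coding windows. This motif and the NRF1 motif below contain CpG, and the member windows were CpG-rich (median ratio 0.731, against 0.567). The motif shares were not compared with those of windows of like CpG ratio. It was in 9 of 18 windows of members with an oxLDL peak (50%) and in 14 of 26 windows of members without (53.8%), similar shares. CCAAT was in 8 of 18 windows of members with a peak (44.4%) and in 6 of 26 without (23.1%), against 38.2% of all windows. The antioxidant response element core TGACNNNGC, through which NRF2 and NFE2L1 act, was in 6 of 44 member windows (13.6%), against 13% of all. The interferon-stimulated response element was in 5 of 44 (11.4%), against 3.35% of all windows. Those windows belonged to Psmb3, Psmd4, Psmd9, Psme1 and Psmg4. The NRF1 motif was in the windows of Psma2 and Psmg1 (4.55%, against 1.33%), and the AP-1 motif TGANTCA in those of Psmb5 and Psmd9 (4.55%, against 6.99%). The cyclic AMP response element TGACGTCA and the NF-kB motif were in none, against 2.23% and 4.98% of all windows. All 8 motifs were searched on both strands, overlaps between motifs were allowed, and a match is a description of the letters.

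Neighbouring genes shared some of the peaks. Of the 5 members with an oxLDL KO peak, 2 had a summit that also counted for another gene, and of the 16 in oxLDL WT 3 did (18.8%), while among all genes with a peak it was 18.6% in oxLDL KO and 21.3% in oxLDL WT. These were Psma4 with AY074887 and Psmb9 with Tap1 in both lists, and Psma2 with Mrpl32 in oxLDL WT. Head-to-head starts within 1 kb of another gene were annotated at 7 of 41 members (17.1%), against 8.48% of all genes with a window. Of the 7, Psma2 and Psmb9 had peaks, and Psma7, Psmc5, Psmd10, Psmd13 and Psme2 had none.

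Other genes of the ubiquitin and proteasome pathway had peaks at 6 of 29 in oxLDL KO (20.7%, interval 9.85 to 38.4) and 12 of 29 in oxLDL WT (41.4%, interval 25.5 to 59.3), with 0 of 29 in KO and WT. Of these 29, Uba1 and Ubqln2 are on the X chromosome, where no library had any peak. All genes gave 13.1% in oxLDL KO and 21.6% in oxLDL WT. The interval of the pathway genes included the first value and lay above the second. The list was chosen with earlier results of these data known, so its shares describe 1 library and are not independent support. Genes with peaks in both oxLDL lists included the regulators of proteasome gene transcription. Nfe2l1, which encodes the factor that raises proteasome gene expression when proteasome activity falls, had a highest fold enrichment of 3.85 in oxLDL KO and 3.78 in oxLDL WT. Ddi2, the protease that activates this factor, had 5.66 in oxLDL KO and 4.62 in oxLDL WT. Nfe2l2, which encodes NRF2, had 4.03 in oxLDL KO and 5.88 in oxLDL WT. Akirin2, which encodes a factor for nuclear import of proteasomes, had 3.85 in oxLDL KO and 3.36 in oxLDL WT, and Zfand5, whose product stimulates the proteasome, had 4.53 in oxLDL KO and 3.57 in oxLDL WT. Of genes with peaks in a single list, the ubiquitin gene Ubb (4.41) and the ubiquitin-activating enzyme gene Uba6 (4.20) were in oxLDL WT, as was Vcp (3.45), which encodes an ATPase that extracts ubiquitinated proteins. Rad23b, which encodes a shuttle for ubiquitinated proteins, was in oxLDL KO (4.15). The assembly factor gene Pomp had none, nor had Sem1.

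Antigen-processing genes had peaks at 2 of 8 in oxLDL KO (25%, interval 7.15 to 59.1) and 7 of 8 in oxLDL WT (87.5%, interval 52.9 to 97.8), against 13.1% of all genes in oxLDL KO and 21.6% in oxLDL WT. This list too was chosen with earlier results of these data known, so these shares only describe it. Tap1, through the peak shared with Psmb9, had 3.85 in oxLDL KO and 4.20 in oxLDL WT. Tapbp, which encodes the peptide-loading protein tapasin, had 3.71 in oxLDL KO and 4.20 in oxLDL WT. In oxLDL WT alone there were peaks at Pdia3 and at Nlrc5, the transactivator of MHC class I genes (both 4.20), and at B2m and Calr (both 3.57). Tap2 had 3.15 in oxLDL WT, the same fold enrichment as Psmb8.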

How the data were processed

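BRG1 ChIP-seq peak lists of 4 libraries, 1 per group, were used, and the input library was not analysed here. Per the submitters' processing notes, bcl2fastq 2.17, Trimmomatic 0.33, Bowtie2, MACS3 and mm10 were used, with no parameters or roles given, and whether the input served as control is not stated. Each deposited list holds, per peak, the authors' fold enrichment over local background, −log10 p and −log10 q, and a score that is derived from −log10 q. Peaks were called per library. Peak lists hold no read totals, so the total depth is unknown. The pileup and background at each summit were recovered from the fold, taken as (pileup + 1)/(background + 1), and from the −log10 p, taken as a Poisson tail, and the step was tested on simulated data.

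Genes, starts and promoter windows came from RefSeq GRCm38.p6. Peaks matched when they overlapped by at least 1 bp. Shares have Wilson 95% intervals and pileups exact Poisson ones, for counting error only. Python 3.11.15, pandas 2.3.3, NumPy 2.4.6 and SciPy 1.17.1 were used. Members, gene lists and motifs were chosen with earlier results of these data known. Every member with a peak was named, and, of the other lists, those present with oxLDL in KO and WT alike, plus at most 4 with the highest fold in a single list. The rule for promoters to print, a summit in the window, found none, so the 5 shown were chosen after peak positions were seen. Tap2, Calr and B2m, and Pomp and Sem1, were also named after their values were seen.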

Additional observations from a re-analysis of the deposited data

How the results depend on the processing

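With 1 library per group, no result has a replicate check, and counts of proteasome genes depend on how many peaks each list holds. Of the recomputed values, 63 stayed within 1.5 times the reported count and 13 did not. The 63 include the counts of 0 in KO and WT, which no alternative could change. At a −log10 q of at least 5, genes with a peak numbered 1 in oxLDL KO and 2 in oxLDL WT. At that limit 1 gene, Psmd1, was in both lists, 0 were in oxLDL KO alone, 1 (Psmd14) was in oxLDL WT alone, and matched peaks numbered 0 in each list. With summits counted only within 1 kb of a gene end, 0 genes were in oxLDL KO alone, since the Psmc2 summit lies 1703 bp inside the annotated span. Limits chosen after seeing the data gave 8 genes in oxLDL WT at a −log10 q of 3, 2 in oxLDL KO and 4 in oxLDL WT at 4, and 1 in oxLDL KO and 2 in oxLDL WT at 6. In KO and WT without oxLDL the count was 0 under every alternative run. That outcome was fixed, because stricter limits only remove peaks and the nearest summits lay 37.6 kb (KO) and 39.1 kb (WT) away. The comparison with genes of like CpG ratio was also added after seeing the data. No paired analysis was possible because each group has 1 library and no test was run.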
